A study of Mus musculus with 4 samples.

Results

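The genes examined here fill, empty and sense the calcium store of the endoplasmic reticulum (ER), in the cerebellum of mice that lack Derlin-2 in the nervous system. They are 10 genes: the inositol trisphosphate (IP3) receptors Itpr2 and Itpr3, the ryanodine receptors Ryr1, Ryr2 and Ryr3, the pump Atp2a2, the store sensors Stim1 and Stim2, the plasma membrane channel Orai1 and the leak protein Tmbim6. Every non-control probe whose RefSeq accession maps to one of them was taken, which gave 17 probes for 9 genes, out of 22911 genes with a named probe. Ryr3 had 0 probes named in this way and was not analysed here. Each of the 17 probes was a single spot, and all 17 passed the filter on dim probes and were well above background on all 4 arrays, so no member probe was lost or gained through the filter.

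RNA came from the cerebellum of C57BL/6 mice at postnatal day 28, on 2 control and 2 knockout (KO) one-colour arrays, labelled from 150 ng of RNA each. The controls carried floxed Derlin-2 alleles (flox/flox). The KO mice descended from matings of Derl2 flox/flox mice with mice whose Cre recombinase is driven by the nestin promoter. That promoter acts in the precursors of neurons and glia, whereas microglia and blood cells arise from another lineage and would keep Derl2. Whether the controls also carried Cre, and whether each array is a separate animal, is not given in the sources used here, and p-values then measure only the spread between these samples. Derlin-2, encoded by Derl2, is an ER membrane protein of the machinery that returns misfolded proteins to the cytosol for degradation. The question addressed is how its loss in the brain bears on gene expression in the cerebellum, here on the genes that handle ER calcium.

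The ER lumen holds calcium far above the level of the cytosol. SERCA pumps fill this store, IP3 and ryanodine receptors open to release it, and when it runs low the STIM proteins sense the loss and open ORAI channels in the plasma membrane so that it can be refilled. In the cerebellum, Purkinje cells depend on such release for the synaptic plasticity behind motor learning, and the chaperones of the ER lumen need bound calcium to fold proteins.

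The promoters of 5 genes are shown because the chaperones of the ER lumen are known targets of the unfolded protein response through short elements near their starts, and the channels can be searched for the same letters. Each is the 250 bases before the start position used for the gene's promoter in assembly GRCm38.p6, read 5′ to 3′ on the gene's strand. For Itpr3 this window lies inside the RefSeq gene, whose first base is 27057002, so the bases before that base were not searched. Among the ER calcium genes, Itpr3 and Orai1 had the most negative differences and Ryr2 the most positive, and Hspa5 and Calr are the luminal calcium-binding chaperones with the smallest p. Capitals mark the ER stress response element (ERSE, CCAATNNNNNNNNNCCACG on either strand) in Hspa5 and Calr, and a CCAAT box without the CCACG end of that element in Orai1. Neither is present in the windows of Itpr3 and Ryr2.
Itpr3, chr17:27057054-27057303, plus strand: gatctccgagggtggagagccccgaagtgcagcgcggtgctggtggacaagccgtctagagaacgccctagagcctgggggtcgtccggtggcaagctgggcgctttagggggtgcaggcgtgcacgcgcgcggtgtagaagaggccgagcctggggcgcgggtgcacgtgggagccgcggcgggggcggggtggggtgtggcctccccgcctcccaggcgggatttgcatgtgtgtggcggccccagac
Orai1, chr5:123014824-123015073, plus strand: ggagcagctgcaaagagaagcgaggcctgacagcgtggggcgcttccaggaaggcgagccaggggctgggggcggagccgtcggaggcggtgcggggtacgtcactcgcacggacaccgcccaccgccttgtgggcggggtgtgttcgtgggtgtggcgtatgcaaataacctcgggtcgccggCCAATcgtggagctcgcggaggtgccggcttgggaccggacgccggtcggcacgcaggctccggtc
Ryr2, chr13:12106946-12107195, minus strand: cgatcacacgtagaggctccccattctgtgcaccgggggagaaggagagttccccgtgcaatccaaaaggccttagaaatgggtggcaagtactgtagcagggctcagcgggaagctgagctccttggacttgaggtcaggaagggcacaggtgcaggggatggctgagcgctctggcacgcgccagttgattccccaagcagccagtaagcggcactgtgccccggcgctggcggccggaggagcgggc
Hspa5, chr2:34771840-34772089, plus strand: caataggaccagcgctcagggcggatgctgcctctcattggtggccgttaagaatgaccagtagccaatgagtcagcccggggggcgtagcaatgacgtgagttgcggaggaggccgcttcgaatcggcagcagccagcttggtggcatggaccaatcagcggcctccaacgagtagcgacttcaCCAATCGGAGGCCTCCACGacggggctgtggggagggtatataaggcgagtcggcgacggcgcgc
Calr, chr8:84846932-84847181, minus strand: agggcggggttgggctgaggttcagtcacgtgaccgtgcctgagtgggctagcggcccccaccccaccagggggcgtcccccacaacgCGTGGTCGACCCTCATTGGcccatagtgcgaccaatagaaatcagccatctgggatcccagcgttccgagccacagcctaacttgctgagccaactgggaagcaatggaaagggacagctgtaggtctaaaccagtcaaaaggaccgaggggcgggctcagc

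Of the ER calcium genes 7 had a promoter in the table, Ryr3, Atp2a2 and Tmbim6 being the others. Of these 7, 0 held an ERSE, which 0.113% of all 32851 windows of the same length held. The related motifs were also at 0 of 7: ERSE-II (ATTGG and CCACG with 1 base between them, 0.0304% of windows), the unfolded protein response element (TGACGTGG, 0.563%) and the C/EBP-ATF response element (TGATGNAA, 3.45%), each searched on both strands. A CCAAT box, which is the first part of an ERSE and overlaps it, stood in 4 of 7 (Itpr2, Ryr1, Stim2 and Orai1) and in 33.8% of all windows. Among the 16 luminal calcium-binding genes in the table, an ERSE stood in 5 (Calr, Canx, Hspa5, Hsp90b1 and Creld2), an ERSE-II in Nucb1 and a CCAAT box in 14. A gene was counted when any window of it held the motif, whereas the percentages are shares of single windows. Only exact matches were counted, so imperfect sites were not. A match is a description of letters and not evidence of binding.

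Signals are log2 values after subtraction of each array's own 75th percentile, so 0 is the 75th percentile of an array and differences are KO minus control on the log2 scale. The label check came first. The Derl2 probe A_51_P498831 read 2.13 and 2.20 on the controls and 0.81 and 0.70 on the KO arrays, a difference of −1.41 (SE 0.11). The second Derl2 probe, A_55_P2178203, differed by −1.73 (SE 0.10). In limma's test, with Benjamini-Hochberg adjustment over all probes, the adjusted p was 0.273 for both. It was 0.0166 for both with an intensity trend in limma's variances, and 0.0384 for the second with normexp background correction. Between 66.4% and 69.4% of spots were well above background, and 0 were saturated. Markers of Purkinje and granule cells were all kept, and their summed linear signal, in multiples of the 75th percentile, was 818 and 845 (controls) against 786 and 784 (KO) for Purkinje cells and 481 and 494 against 471 and 472 for granule cells. Control replicate 2 stood apart: the summed signal of choroid plexus markers was 142.7 there and 7.49 to 7.89 on the other arrays, and that of red blood cell markers 585 against 396 to 413. All arrays lay on 1 slide with the groups at different positions, so position and group cannot be told apart.

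Across the ER calcium genes, KO and control arrays differed by small amounts in both directions. In limma's test 0 of 17 probes passed an adjusted p of 0.05, against 0% of all 37516 probes kept, and 0 of 17 had an unadjusted p under 0.05, against 14.0%. KO means were higher for 8 probes and lower for 9, with differences between −0.36 for Itpr3 and 0.25 for a Ryr2 probe. The median difference was −0.03, as it was over all probes, and the median size regardless of sign was 0.11, against 0.16 over all probes. On the brightest probe of each gene that median size was 0.15 for the 9 genes and 0.14 over all named genes. Both KO arrays lay below both controls for 6 probes, where 26.9% of all probes did so, and above both for 3, where 22.5% did. The groups overlapped for the other 8. When the arrays were scaled to the spike-in probes instead of the 75th percentile, the counts were 3 lower and 5 higher, and the medians of the member probes and of all probes were both 0.04, so the direction of the smaller differences depended on the scaling. A comparison of 2 against 2 arrays by permutation cannot give a share under 33.3%, and in this bulk tissue fewer cells of a type and less RNA per cell cannot be told apart.

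**Figure D1:**
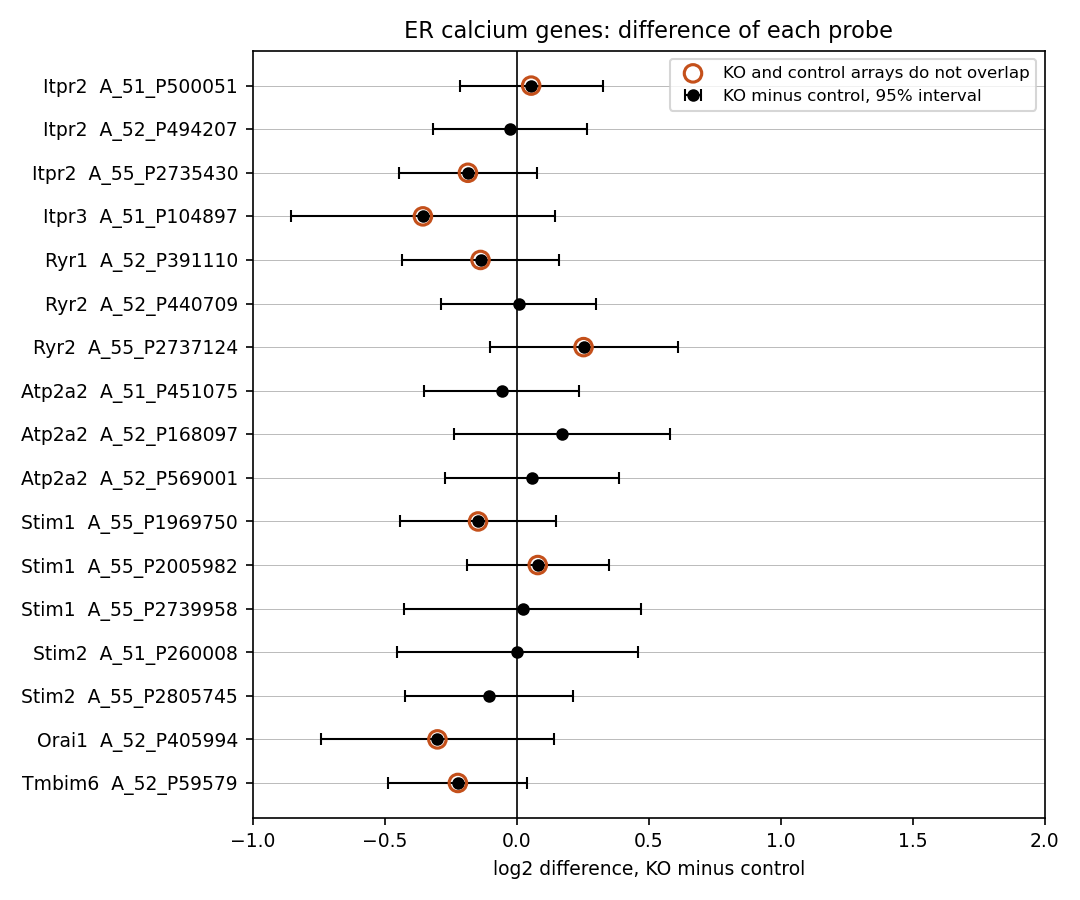
KO minus control difference of each of the 17 probes of the ER calcium genes, on the log2 scale, with its 95% confidence interval from limma (2 arrays a group). Rings mark the 9 probes whose KO and control arrays do not overlap, and every interval crosses 0.

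The release channels came first. Itpr3 encodes the IP3 receptor with the lowest affinity for IP3, best known from epithelial and taste cells. Its probe A_51_P104897 read 2.12 and 1.67 on the controls and 1.48 and 1.60 on the KO arrays. Both KO arrays were below both controls, but the controls lay 0.45 apart, further than the KO arrays were from control replicate 2. The KO mean was 78.2% of control, with a 95% confidence interval from 55.2% to 111% (difference −0.36, SE 0.19, limma adjusted p = 0.456). Without control replicate 1 the difference was −0.13, and without control replicate 2, the array with the choroid plexus signal, it was −0.58. The part of that tissue in the Itpr3 signal was not tested.

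Itpr2 encodes the IP3 receptor of glia and many other cell types, and it had 3 probes. The bright probe, A_51_P500051, read 1.95 and 1.92 on the controls and 2.03 and 1.95 on the KO arrays. The KO arrays were above the controls by little, and the difference was 0.05 (SE 0.10, limma adjusted p = 0.822), which leaves the KO level between 86.1% and 125% of control. The other Itpr2 probes, A_52_P494207 and A_55_P2735430, were dim, at 2.36 to 3.31 times the local background of the scan. The first of these read −4.11 and −4.26 on the controls and −4.20 and −4.22 on the KO arrays, so the groups overlapped. The second read −4.32 and −4.29 against −4.49 and −4.49, lower on both KO arrays by −0.18 (SE 0.10, limma adjusted p = 0.457). The 3 probes thus gave 1 difference in each direction with separate groups and 1 overlap, and the mean of all 3 was lower on both KO arrays (difference −0.05, SE 0.10). On the bright probe KO replicate 2 and control replicate 1 were equal to 2 decimals.

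Ryanodine receptors are large channels that open when calcium on the cytosolic side rises. Ryr1, the channel of skeletal muscle that Purkinje cells also express, read 0.07 and 0.20 on the controls and −0.05 and 0.05 on the KO arrays of probe A_52_P391110. Both KO arrays lay below both controls, KO replicate 2 only just. The KO level was 90.9% of control (difference −0.14, SE 0.11, limma adjusted p = 0.598). Of 11 markers of striated muscle, a tissue that also holds Ryr1, 8 were kept, and the defining Ckm, Myh1 and Myh2 were not. The summed signal of the 8 was 1.04 and 1.48 on the controls and 1.1 and 1.12 on the KO arrays. The KO sums thus lay between those of the controls. By gene, 6 of 8 were lower in KO, 4 of them on both KO arrays, with a median of −0.31. Over all named genes 63.9% were lower and 32.1% were lower on both KO arrays, with a median of −0.06. The part of such tissue in the Ryr1 signal was not tested.

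Ryr2, the ryanodine receptor of heart and of many neurons, had 2 probes that differed in what they showed. Probe A_52_P440709 read 1.12 and 1.24 on the controls and 1.14 and 1.23 on the KO arrays, which overlapped almost completely (difference 0.01, SE 0.11). Probe A_55_P2737124 read 1.02 and 1.26 on the controls and 1.34 and 1.45 on the KO arrays. There both KO arrays were above both controls and the KO mean was 119% of control, with an interval from 93.1% to 153% (difference 0.25, SE 0.13, limma adjusted p = 0.455). Over both probes the mean difference was 0.13 (SE 0.12) and the groups overlapped, so a higher Ryr2 level was read by 1 probe of 2.

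**Figure D2:**
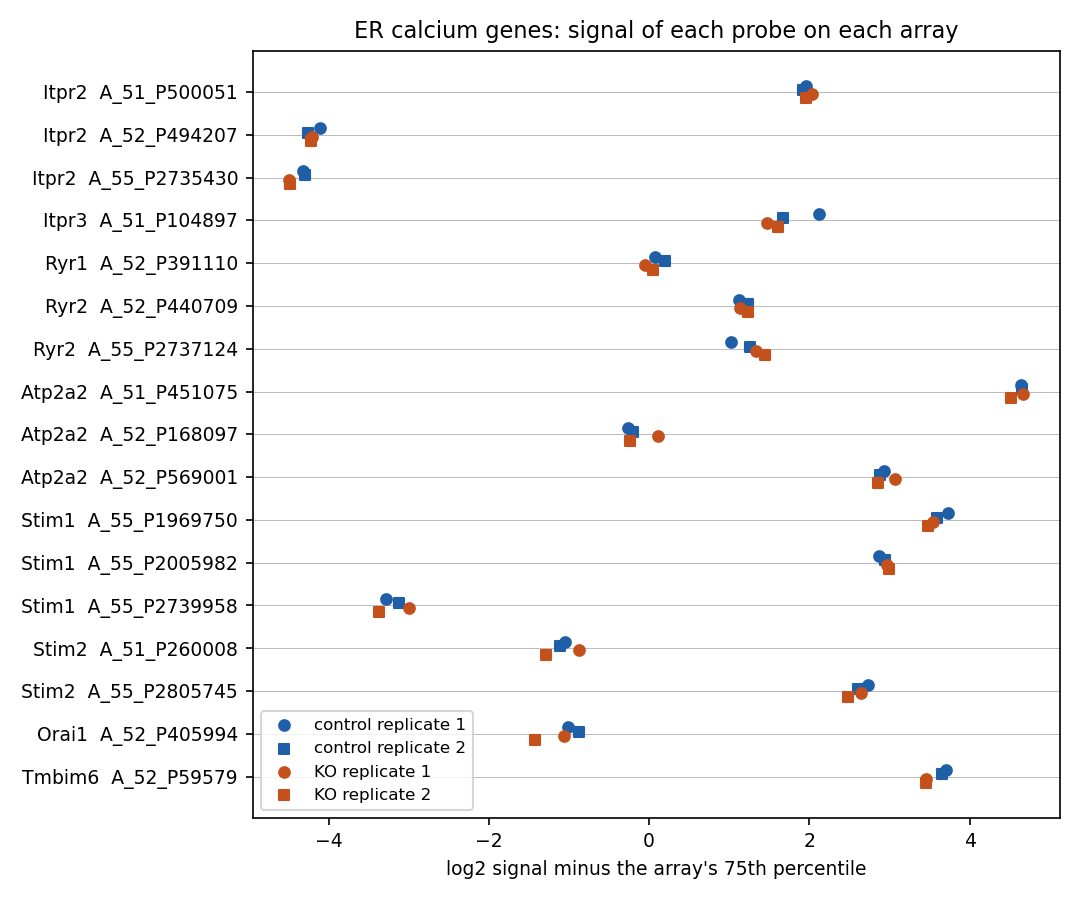
Log2 signal minus the array's 75th percentile for each of the 17 probes on each of the 4 arrays (circles replicate 1, squares replicate 2, blue control, orange KO). The widest spread between the 4 arrays of a probe is at Itpr3, and KO and control points lie close together at most probes.

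Refilling of the store was read through Atp2a2, which encodes SERCA2, the pump that moves calcium from the cytosol into the ER in neurons and glia. Its brightest probe, A_51_P451075, read 4.65 and 4.65 on the controls and 4.67 and 4.52 on the KO arrays. Probe A_52_P168097, assigned to the same transcript, read −0.27 and −0.20 against 0.11 and −0.23. Probe A_52_P569001, assigned to a second transcript of the gene, read 2.94 and 2.88 against 3.07 and 2.86. KO replicate 1 was the highest array for all 3 probes. KO replicate 2 was the lowest for 2 of them and lay between the controls for A_52_P168097, so the groups overlapped throughout. The differences were −0.06 (SE 0.11), 0.17 (SE 0.15) and 0.06 (SE 0.12), with limma adjusted p-values of 0.831, 0.630 and 0.844. For the brightest probe the interval ran from 78.5% to 118% of control.

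Stim1 and Stim2 encode the single-pass ER proteins that sense luminal calcium, and Stim1 is the form known for metabotropic glutamate responses of Purkinje cells. The Stim1 probe A_55_P1969750 read 3.73 and 3.59 on the controls and 3.54 and 3.48 on the KO arrays. A second, A_55_P2005982, assigned to a predicted transcript, read 2.87 and 2.94 against 2.97 and 3.0. These 2 bright probes were separate in opposite directions, by −0.15 (SE 0.11) and 0.08 (SE 0.10), neither past the test (limma adjusted p = 0.575 and 0.734). The third Stim1 probe, A_55_P2739958, was dim, at 3.81 to 5.20 times local background, and read −3.28 and −3.13 against −3.0 and −3.37. The KO arrays lay on either side of both controls there. Over all 3 Stim1 probes the mean difference was −0.01 (SE 0.11) and the groups overlapped.

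For Stim2, probe A_55_P2805745 read 2.73 and 2.60 on the controls and 2.64 and 2.49 on the KO arrays, a difference of −0.11 (SE 0.12). Probe A_51_P260008 read −1.05 and −1.12 against −0.88 and −1.29, a difference of 0.0019 (SE 0.17), with the KO arrays 0.41 apart. The groups overlapped for both probes. The limma adjusted p-values were 0.703 and 0.997, and the intervals reached from 74.5% to 116% and from 72.9% to 138% of control.

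Orai1, the pore through which calcium enters once STIM proteins are active, had 1 probe, A_52_P405994. It read −1.02 and −0.87 on the controls and −1.06 and −1.43 on the KO arrays. Both KO arrays were below both controls, KO replicate 1 close to control replicate 1 and KO replicate 2 further down. The KO mean was 81.2% of control, with an interval from 59.7% to 110% (difference −0.30, SE 0.16, limma adjusted p = 0.471). Without KO replicate 1 the difference was −0.48 and without KO replicate 2 it was −0.12.

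Tmbim6 encodes Bax inhibitor 1, a multi-pass ER membrane protein that lets calcium leak from the store and that protects cells against ER stress. Probe A_52_P59579 read 3.70 and 3.65 on the controls and 3.45 and 3.45 on the KO arrays. Replicates were close on this probe, 0.046 apart in the controls and 0.00070 in KO, and both KO arrays were below both controls. The KO mean was 85.7% of control, with an interval from 71.4% to 103% (difference −0.22, SE 0.10). This was the smallest p among the 17 probes, an unadjusted 0.0795 and an adjusted 0.399 in limma's test. The difference stayed between −0.25 and −0.16 in every alternative tried, leave-outs included.

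The arrays of KO did not lie equally far from the controls for these genes. The median of the 17 probes was 0.02 and 0.03 for KO replicate 1 minus each control, and −0.11 for KO replicate 2 minus either control. Over all probes the same medians were between −0.03 and −0.01. KO replicate 2 was the lowest of the 4 arrays for 7 of the 17 probes, as it was for 31.4% of all probes, and the highest for 2 (22.7% of all probes). KO replicate 1 was the highest for 6 (26.2% of all probes). The widest gaps between the KO arrays, 0.34 to 0.41, were those of Atp2a2 A_52_P168097, Stim1 A_55_P2739958, Stim2 A_51_P260008 and Orai1, in each case with replicate 1 above replicate 2. With 1 array fewer, groups separate more easily, so counts without an array stand beside the share of all probes under the same omission. Without KO replicate 1 the 17 probes gave 11 lower and 3 higher (43.7% and 34.5% of all probes), and without KO replicate 2 they gave 6 and 8 (40.4% and 36.9%). Without control replicate 1 the counts were 7 and 4 (38.0% and 32.3%), and without control replicate 2 they were 8 and 5 (39.9% and 32.9%). Among cell type markers, the summed signal of microglia was 24.7 and 23.6 on the controls, 19.0 on KO replicate 1 and 23.1 on KO replicate 2, and that of oligodendrocytes was 379 and 360, 327 and 357. Markers of mural and smooth muscle cells, cells known for ryanodine receptors and IP3 receptors, were lower in KO for 8 of 8 genes, 4 of them on both arrays. Of all named genes, 63.9% were lower and 32.1% were lower on both KO arrays. Their sums were 13.4 and 13.3 on the controls and 11.2 and 11.3 on the KO arrays. Markers of astrocytes and Bergmann glia, the glia in which Itpr2 is known, were lower for 7 of 8, 4 of them on both arrays, with sums of 132.2 and 131.6 against 122.8 and 117.9. The other marker lists leaned the same way. Purkinje, granule cell and oligodendrocyte markers were each lower for 7 of 8, with 5, 3 and 5 on both KO arrays. Microglia and choroid plexus markers were lower for 8 of 8 (4 and 3 on both). Endothelial markers were lower for 6 of 8 (3 on both) and red blood cell markers for 5 of 5 (1 on both). In these lists only 1 marker, of oligodendrocytes, was higher on both KO arrays. The part of any of these cells in the values of the calcium genes was not tested.

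The rest of the calcium pathway was read from 7 lists of 105 genes, 103 of which had a probe kept, with the brightest probe taken for each gene. On that scale 8.81% of the 16524 named genes had an unadjusted p under 0.05, 32.1% had both KO arrays below both controls, 13.8% had both above, and the median difference was −0.06. In limma's test 0 of the 103 genes passed an adjusted p of 0.05 and 7 had an unadjusted p under 0.05, of which 3 were higher in KO. In 43 of the 103 both KO arrays were lower and in 14 both were higher. The 9 ER calcium genes, read the same way, were lower on both KO arrays for 5 and higher for 2, with a median of −0.14.

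Of the other pumps, channels and leak proteins of the ER, 15 of 16 were kept (Pln was not), and their median difference was −0.02, with 4 lower and 3 higher on both KO arrays. Itpr1, the IP3 receptor of Purkinje cells, was among them, is named after its values were seen, and read 6.66 and 6.59 on the controls and 6.67 and 6.69 on the KO arrays (difference 0.06, SE 0.10). Sln, which encodes sarcolipin, a small inhibitor of SERCA pumps, read 0.50 and 0.59 on the controls and 0.90 and 1.07 on the KO arrays, a difference of 0.44 (SE 0.12, limma adjusted p = 0.289). Tmem38b, a potassium channel subunit of the ER that balances charge during calcium release, differed by −0.43 (SE 0.15). Its signal was low, at −3.22 and −2.92 against −3.41 and −3.59, and with normexp the difference was −0.26. Tmco1, a channel that opens when the store is overfull, differed by −0.26 (SE 0.18) with overlapping groups.

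The 12 other genes of store-operated entry had a median of −0.11, with 4 lower and 1 higher on both KO arrays. Orai3, a relative of Orai1, read 2.68 and 2.76 on the controls and 2.44 and 2.40 on the KO arrays, a difference of −0.30 (SE 0.10, limma adjusted p = 0.334). Trpc1, a cation channel subunit, differed by 0.37 (SE 0.15). Among 18 kept partners of the release channels 10 were lower on both KO arrays and 0 were higher, with a median of −0.14. These included the IP3 receptor binding proteins Ahcyl2 (−0.26, SE 0.10) and Ahcyl1 (−0.18, SE 0.10). Another was Mrvi1, the IP3 receptor-associated substrate of cGMP kinase (−0.27, SE 0.12). Its signal was low, at −2.06 and −2.25 against −2.38 and −2.48, and with normexp the difference was −0.15. Car8, an inhibitor of IP3 binding in Purkinje cells, gave the largest difference of the lists, −1.16 (SE 0.98), from a single array: it read 3.99 and 3.13 on the controls, 1.02 on KO replicate 1 and 3.78 on KO replicate 2. It was chosen after its values were seen.

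Of 15 genes that make or break down IP3, 7 were lower and 2 higher on both KO arrays (median −0.07), with the smallest p-values at the kinase genes Itpkb (−0.20, SE 0.10) and Itpka (−0.26, SE 0.14) and at Plcb4, a phospholipase of Purkinje cells (0.27, SE 0.13). A second Plcb4 probe differed by 0.02. The Itpkb signal was low, at −2.79 and −2.79 on the controls and −2.97 and −3.01 on the KO arrays. With normexp the Itpkb difference was −0.14, and a second, dimmer Itpkb probe differed by −0.36 (SE 0.12). Of 16 genes for calcium transfer from ER to mitochondria, 11 were lower and 1 was higher (median −0.12). The mitochondrial sodium/calcium exchanger gene Slc8b1 differed by −0.48 (SE 0.10) on its brightest probe and by 0.08 (SE 0.23) on another. Even the brightest probe was low, at −3.43 and −3.50 on the controls and −3.99 and −3.90 on the KO arrays. With normexp its difference was −0.27. The 10 genes for calcium extrusion at the plasma membrane had a median of 0.01, with 1 lower and 1 higher.

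**Figure D3:**
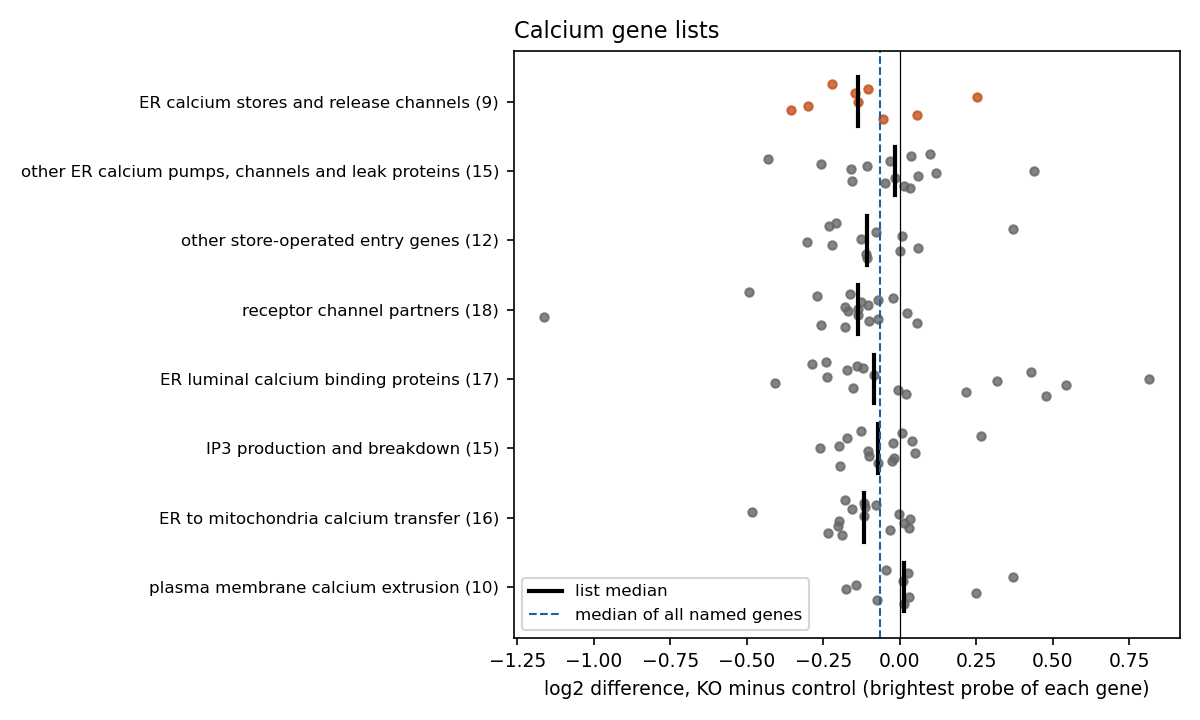
KO minus control difference (log2) of the brightest probe of each gene, for the ER calcium genes (orange, 9) and the 7 wider lists (grey), with the number of genes kept in brackets. Bars are list medians, the dashed line is the median of all named genes (−0.06), and the 4 points furthest to the right in the luminal list are Hspa5, Creld2, Calr and Pdia4.

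The last list was that of proteins that hold calcium inside the ER lumen. Among 17 kept genes the median was −0.08, with 6 lower and 6 higher on both KO arrays, and the median size regardless of sign was 0.24, against 0.15 for the ER calcium genes and 0.14 over all named genes. Hspa5, which encodes the chaperone BiP, read 4.69 and 4.78 on the controls and 5.73 and 5.38 on the KO arrays, a difference of 0.82 (SE 0.16, limma adjusted p = 0.273). Calr, which encodes calreticulin, read 3.36 and 3.59 against 4.09 and 3.81, a difference of 0.48 (SE 0.16, limma adjusted p = 0.328). The other genes that were higher on both KO arrays were Creld2 (0.54), Pdia4 (0.43), Hsp90b1 (0.32) and Canx (0.22), named here after their values were seen. Ppib, a folding enzyme of the same list also named afterwards, was lower on both KO arrays, at 3.75 and 3.82 against 3.60 and 3.63 (difference −0.17, SE 0.10). On all 6 luminal genes that were higher on both KO arrays, KO replicate 1 was above KO replicate 2. The same held for 10 of the 17 probes of the ER calcium genes and 53.7% of all probes. Hrc, a histidine-rich calcium-binding protein of muscle, differed by −0.41 (SE 0.13). Its signal was low, at −3.28 and −3.44 against −3.87 and −3.66, and with normexp the difference was −0.21. None of these values passed the adjusted threshold.

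Set beside the promoters printed above, all 5 luminal genes with an ERSE were higher on both KO arrays. Over all named genes 13.8% were higher on both KO arrays and 32.1% were lower on both. Of the 11 luminal genes in the table without an ERSE, 1 was higher (Pdia4) and 6 were lower, among them Nucb1 (−0.24), which holds the ERSE-II. None of the 7 ER calcium genes in the table holds an exact match to the element in the bases searched. On their brightest probes, 2 of these 7 were higher on both KO arrays (Itpr2 and Ryr2, by 0.05 and 0.25) and 4 were lower. Read as the mean of all its probes, Itpr2 was instead lower on both KO arrays and Ryr2 overlapped. The part of the ERSE in these values was not tested. The ERSE of Hspa5 lies 65 bases before the start and that of Calr 162 bases, the latter on the reverse strand, and the CCAAT box of Orai1 lies 66 bases before the start.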

How the data were processed

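RNA from 4 cerebellum samples, grouped and numbered by their titles, was measured on one-colour Agilent arrays. The deposited scanner files hold the processed signal, a linear intensity from which background had been removed by Agilent Feature Extraction, which is version 12.1.1.1 per the file headers and 10.7.1.1 per the submitters' processing notes. The deposited series table holds log2 values of the same arrays and served as an alternative. Log2 processed signals were averaged per probe without control and outlier spots and set relative to the array's 75th percentile. The 37516 of 56605 probes that either group showed well above background on its 2 arrays were kept. Of 35886 probes with a RefSeq accession, 91.9% were named through a RefSeq table of GRCm38.p6, which also gave the promoters; the files state no build. KO and control were compared with limma 3.58.1 in R 4.3.3 (lmFit and eBayes, no covariates, 4.35 degrees of freedom), with Benjamini-Hochberg adjustment over all probes kept, after a test on simulated data. Intervals are 95%. Named are every member probe, Derl2, the 3 genes of each wider list with the smallest p, and others where said to be chosen afterwards; 1 gene so named is not reported here. The members, lists and alternatives were chosen with earlier results of these data known.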

Additional observations from a re-analysis of the deposited data

How the results depend on the processing

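The 17 probes of the ER calcium genes had 0 adjusted calls under all alternatives, and so had the wider lists. Over all probes the count of 0 was 1 with quantile normalization, 1 with the median of probes well above background, 1 with spike-in scaling, 1 without spots on patches of raised background, 2 with normexp (offset 50, on the median spot intensity) and 4 with an intensity trend and robust variances, the last including both Derl2 probes and the normexp count 1 of them. Leaving out 1 array gave 0 to 98, the 98 without control replicate 2, where the spread of the lone array was taken from the remaining group. The replicate numbers share only a number: deviations of same-numbered arrays correlated at 0.124, and the replicate block gave 0 calls. Of the 17 probes, 1 had an unadjusted p under 0.05 with normexp and with the intensity trend (Tmbim6), without control replicate 2 (Itpr3) and without KO replicate 1 (Orai1).

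Of 255 probe values under 15 alternatives, 240 kept their direction. The 15 others were on 6 probes with small differences, and the cause was not tested. Quantile normalization gave 0.00925 for Atp2a2 A_51_P451075 and 0.00129 for Itpr2 A_52_P494207, spike-in scaling gave 0.00978 and 0.039 for the same probes, normexp gave 0.0446 for the latter, and the median of probes well above background gave −0.00326 for Stim2 A_51_P260008. With 1 array left out, values ran from −0.131 to 0.0187 (Atp2a2 A_51_P451075), −0.0486 to 0.166 (Atp2a2 A_52_P569001), −0.0988 to 0.0448 (Itpr2 A_52_P494207), −0.0517 to 0.0679 (Ryr2 A_52_P440709), −0.163 to 0.208 (Stim1 A_55_P2739958) and −0.202 to 0.206 (Stim2 A_51_P260008). With 2 arrays a group, the intervals of the 17 probes allow changes of the sizes given beside them, and the 3 dim probes, within 5.20 times local background, are limited by signal as well.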
